A study of Mus musculus with 6 samples.

Results

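The genes described here encode the transcription factor NRF2, its inhibitor KEAP1, and 7 enzymes and transporters that NRF2 is known to drive. They are Nfe2l2, Keap1, Nqo1, Gclc, Gclm, Slc7a11, Srxn1, Txnrd1 and Gsr, taken by symbol from the deposited tables. All 9 were listed in each of the 6 cultures, out of 17060 genes listed in at least 1 culture. The cultures were lineage-negative BM cells of WT mice, cultured with EPO to form erythroblasts. For 48 hours 3 cultures received NUP-17d, a small-molecule inhibitor of pleckstrin-2, and 3 received its vehicle DMSO. The samples shared genotype, medium and time, and differed by label in the compound only. The labels do not say whether cultures of a group came from separate mice, so p-values measure the spread between these samples, which may be technical.

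NRF2 is a bZIP protein that pairs with small MAF proteins and binds antioxidant response elements. KEAP1 is the adaptor through which the CUL3 ubiquitin ligase marks NRF2 for destruction, and electrophiles and oxidants that react with KEAP1 cysteines let NRF2 accumulate. Its activity is therefore set largely at the level of protein, which was not measured here. NRF2 targets supply glutathione and NADPH, reducing power on which erythroid cells depend, since hemoglobin and iron are a standing source of oxidants.

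The core of the antioxidant response element, TGACNNNGC, was searched on both strands of RefSeq promoter windows (GRCm38.p6, 250 bases before to 50 after a start site). It was present in 12.4% of all 32851 windows. Windows were matched for 7 of the 9 genes, all but Gclc and Gsr, and 4 of the 7 held the core, 1 of them (Txnrd1) in 1 of its 3 windows. Counted by window, as the 12.4% is, 4 of the 9 windows of these genes held it. The 4 matches are shown because these genes differ in their direction in the comparison that follows. Each is written 5′ to 3′ on the strand that reads the core, with the core in capitals and positions counted from the start site of its window.

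Nfe2l2: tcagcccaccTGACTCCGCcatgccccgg
Srxn1: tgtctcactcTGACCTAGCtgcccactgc
Gclm: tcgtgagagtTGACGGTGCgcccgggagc
Txnrd1: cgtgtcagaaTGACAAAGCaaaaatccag

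The Nfe2l2 stretch is chr2:75704885-75704913 (minus strand), with its core 240 to 232 bases before the start site. The Srxn1 stretch is chr2:152105542-152105570 (minus strand), with its core 28 to 36 bases after the start site. The Gclm stretch is chr3:122245413-122245441 (minus strand), with its core 134 to 126 bases before the start site. The Txnrd1 stretch is chr10:82859104-82859132 (minus strand), with its core 92 to 84 bases before the start site. A match of these letters is a description of the window and not evidence of binding. The windows of Keap1, Nqo1 and Slc7a11 did not hold these letters.

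Library totals were close, at 20278433 to 20419018 expected counts with DMSO and 20076409 to 20170197 with NUP-17d. The hemoglobin share was not, at 18.3% to 20.3% with DMSO and 11.8% to 13.1% with NUP-17d. At a fixed total the other genes together thus held a larger share of the reads, though not each of them gained. The TMM method, which rescales libraries so that most genes keep their level, was used for this, and CPM below means counts scaled to a common library size in this way. It leaves the median log2 fold change of all tested genes at 0.014, against 0.28 when libraries are scaled by their totals alone. All 45 markers of blood cell types were detected in every culture, the lowest being the mast cell gene Fcer1a (1.66 to 2.48 CPM). With TMM scaling all 13 erythroid markers fell (edgeR, median log2 fold change -0.55). Their summed level went from 26158 to 28146 CPM with DMSO to 16235 to 17206 with NUP-17d. The 8 macrophage and monocyte markers summed to 4129 to 4480 and 4609 to 5057 CPM, most of it Lyz2, and 4 of them passed as higher, 2 as lower and 2 did not pass. The 8 neutrophil markers summed to 3750 to 3913 and 3813 to 4072 CPM, with 1 higher and 1 lower. The 8 mast cell and basophil markers summed to 402.8 to 414.1 and 391.2 to 399.9 CPM (2 higher, 3 lower), and the 8 megakaryocyte markers to 453.4 to 500.5 and 522.2 to 541.7 (5 higher, 1 lower). With totals alone, 11 erythroid markers passed as lower and 0 as higher (median -0.28). Higher and lower were then 6 and 0 for macrophage, 7 and 0 for neutrophil, 4 and 0 for mast cell and 7 and 1 for megakaryocyte markers. The part these shifts have in the values below was not tested, and in bulk RNA fewer cells of a type and less RNA per cell cannot be told apart.

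The question of the comparison is what NUP-17d changed in this system. Of the 9 genes, 5 fell, 2 rose and 2 did not pass an adjusted p of 0.05 with TMM scaling (edgeR's quasi-likelihood test, Benjamini-Hochberg adjustment), against 6 higher and 1 lower with totals alone. In all, 35.3% of the 12306 tested genes passed, 16.4% higher and 18.9% lower. Srxn1, Gclm, Slc7a11, Nqo1 and Gclc fell, by 9.12% (Gclc) to 22.3% (Srxn1). Gsr rose by 17.5% and Txnrd1 by 6.96%, and Nfe2l2 and Keap1 did not pass, with estimates of 0.588% and 1.38%. The groups did not overlap for the 7 genes that passed, as for 46.0% of all tested genes. The changes were of ordinary size, with a median absolute log2 fold change of 0.23 over the 7, beside 0.25 over all genes that passed. The median over the 9 genes was -0.14.

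**Figure D1:**
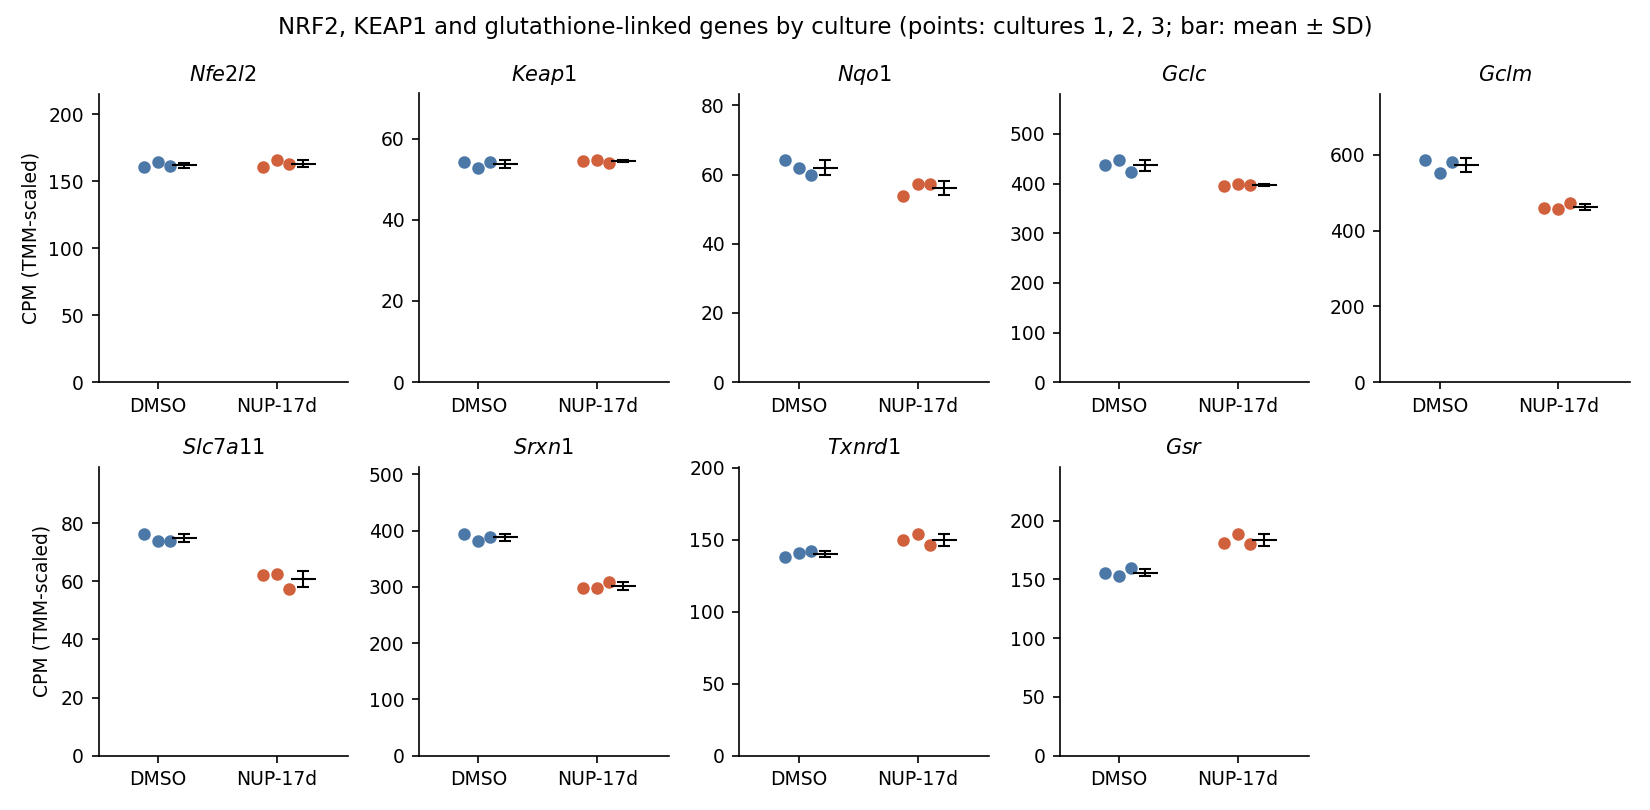
TMM-scaled CPM (vertical axis, from 0) of the 9 genes in each DMSO (blue) and NUP-17d (red) culture, with the mean and SD of 3 cultures as a black bar. Gclm, Slc7a11 and Srxn1 sit lower in every NUP-17d culture and Gsr higher, while the points of Nfe2l2 and Keap1 overlap.

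The factor and its inhibitor did not pass the test. Nfe2l2 (Entrez 18024; chr2:75675513-75704663), which encodes NRF2, had 160.6, 164.1 and 161.3 CPM in DMSO cultures 1, 2 and 3 and 160.3, 165.7 and 162.9 in NUP-17d cultures 1, 2 and 3. The lowest and the highest value were both from NUP-17d cultures, and the log2 fold change was 0.0085 (95% interval -0.063 to 0.080, edgeR adjusted p = 0.874). Keap1 (Entrez 50868; chr9:21229730-21239332) had 54.3, 52.7 and 54.3 CPM with DMSO and 54.6, 54.7 and 54.1 with NUP-17d. Its log2 fold change was 0.020 (95% interval -0.066 to 0.11, edgeR adjusted p = 0.749). In percent the intervals ran from -4.25% to 5.67% for Nfe2l2 and from -4.45% to 7.57% for Keap1, on the TMM scale. The ratio of Keap1 to Nfe2l2 within a library, which no scaling can move, was 0.248 ± 0.00646 with DMSO and 0.250 ± 0.00337 with NUP-17d in FPKM (SD, n = 3 each, 2-sided exact permutation test, p = 0.5). Keap1 has 4 transcripts in the tables, and their mean length was 3327.1 to 3346.9 bases with DMSO and 3287.3 to 3348.7 with NUP-17d, with overlap between the groups.

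Both subunits of the enzyme that starts glutathione synthesis fell. Gclm (Entrez 14630; chr3:122245487-122267215) encodes the modifier subunit of glutamate-cysteine ligase, the rate-limiting enzyme of the pathway. It had 585.8, 551.3 and 580.3 CPM with DMSO and 458.6, 455.7 and 471.4 with NUP-17d. Every NUP-17d culture was below every DMSO culture, at a log2 fold change of -0.31 (SE 0.035, edgeR adjusted p = 6.27e-08). Gclc (Entrez 14629; chr9:77754535-77794489), the catalytic subunit, had 437.6, 447.1 and 424.1 CPM with DMSO and 394.0, 398.1 and 397.3 with NUP-17d. It also fell in every culture but by less, at a log2 fold change of -0.14 (SE 0.034, edgeR adjusted p = 0.00209), and it rose by 0.13 when libraries were scaled by totals alone. The ratio of Gclc to Gclm, free of scaling, was 0.446, 0.485 and 0.437 with DMSO and 0.514, 0.522 and 0.504 with NUP-17d in FPKM. It was higher in all 3 NUP-17d cultures (2-sided exact permutation test, p = 0.1). No smaller p is possible with 3 cultures against 3.

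Slc7a11 (Entrez 26570; chr3:50364936-50499087) encodes xCT, the light chain of the antiporter that brings in cystine for glutathione. It had 76.4, 73.9 and 74.0 CPM with DMSO and 62.1, 62.4 and 57.5 with NUP-17d. The groups were well apart, at a log2 fold change of -0.30 (SE 0.042, edgeR adjusted p = 2.31e-06). Its expected counts (1255 to 1401) were not whole in any culture, so that part of its reads was shared with another feature. Its partner chain Slc3a2, which also serves other transporters, fell by 0.36 on the log2 scale (edgeR adjusted p = 4.31e-09). The ratio of Slc7a11 to Slc3a2 was 0.0341 ± 0.000775 with DMSO and 0.0356 ± 0.00255 with NUP-17d in FPKM, and the groups overlapped (SD, n = 3 each, 2-sided exact permutation test, p = 0.4).

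The thiol reductases went opposite ways. Srxn1 (Entrez 76650; chr2:152105524-152111376) encodes sulfiredoxin, which repairs overoxidized peroxiredoxins. It had 394.5, 382.1 and 388.2 CPM with DMSO and 298.2, 297.7 and 309.3 with NUP-17d, and its log2 fold change of -0.36 was the largest in size of the 9 with TMM scaling (SE 0.034, edgeR adjusted p = 1.97e-09). It was the only gene of the 9 that also passed as lower with scaling by totals alone (-0.097, edgeR adjusted p = 0.00930), where Gclm at -0.042 and Slc7a11 at -0.033 did not pass. Gsr (Entrez 14782; chr8:33653238-33698162) encodes glutathione reductase, which regenerates glutathione with NADPH. It had 155.1, 153.0 and 159.4 CPM with DMSO and 181.0, 188.9 and 179.7 with NUP-17d, a rise of 0.23 on the log2 scale (SE 0.036, edgeR adjusted p = 8.44e-06) with a wide gap between the groups. With totals alone its rise was 0.50, the largest in size of the 9 on that scale.

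Txnrd1 (Entrez 50493; chr10:82833951-82897724) encodes the cytosolic thioredoxin reductase. It had 138.0, 140.5 and 142.1 CPM with DMSO and 149.8, 154.2 and 146.0 with NUP-17d, which did not overlap but lay close. The rise of 0.097 on the log2 scale (edgeR adjusted p = 0.0362) missed the threshold with DESeq2 (adjusted p = 0.0891) and in 5 of the 6 fits that left out 1 culture. The exception was the fit without NUP-17d culture 3. The ratio of Txnrd1 to Gsr in FPKM was 0.707, 0.725 and 0.709 with DMSO and 0.652, 0.648 and 0.643 with NUP-17d, with no overlap (2-sided exact permutation test, p = 0.1). The mean length of its 4 transcripts was 3376.6 to 3401.4 bases with DMSO and 3380.4 to 3410.8 with NUP-17d, with overlap between the groups.

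Nqo1 (Entrez 18104; chr8:107388225-107403205) encodes a quinone reductase that is among the most used reporters of NRF2 activity. It had 64.2, 61.8 and 59.9 CPM with DMSO and 53.7, 57.2 and 57.4 with NUP-17d, so the nearest cultures of the groups were only a little apart. Its log2 fold change was -0.14 (SE 0.044, edgeR adjusted p = 0.0120), but 0.12 with scaling by totals alone. It missed the threshold without DMSO culture 1 (edgeR adjusted p = 0.0721) and without NUP-17d culture 1 (edgeR adjusted p = 0.0646).

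**Figure D2:**
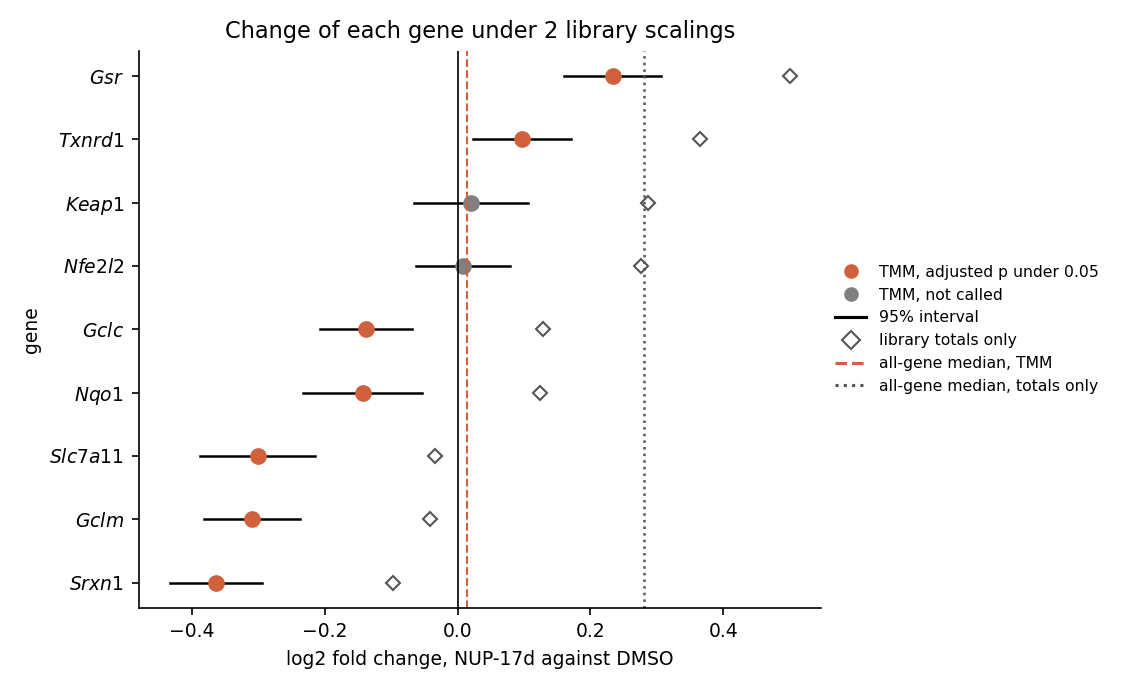
Log2 fold change of each gene, NUP-17d against DMSO (horizontal axis), with TMM scaling (circles, red where the adjusted p was under 0.05, with the 95% interval) and with library totals only (diamonds). Vertical lines mark 0 and the all-gene medians of 0.014 and 0.28. All 9 genes move to the right by nearly the same amount as the all-gene median, and their order is the same, as a change of scaling must give.

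The scaling sets where 0 lies for these genes. With totals alone 6 of the 9 passed as higher and 1 as lower, when 74.1% of all tested genes passed, 68.7% as higher and 5.34% as lower. Relative to the all-gene median of each scaling, the genes had nearly the same values. A change of scaling shifts all genes nearly alike, so this had to hold and is no check of the calls. Srxn1 lay at -0.38, Gclm at -0.32, Slc7a11 at -0.31, Nqo1 at -0.16 and Gclc at -0.15 with either scaling, and Gsr at 0.22. Removing hemoglobin genes before scaling changed no call among the 9 genes.

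Per length, Gclm was the most abundant of the 9 transcripts and Slc7a11 the least. On the scale of FPKM divided by the TMM factor, Gclm averaged 274.1 ± 8.77 in DMSO cultures and 221.8 ± 3.92 in NUP-17d cultures, and Slc7a11 averaged 7.93 ± 0.147 and 6.45 ± 0.289 (SD, n = 3 each). With DMSO the order of the levels was Gclm, Srxn1, Gclc, Nfe2l2, Gsr, Txnrd1, Nqo1, Keap1 and Slc7a11, in which only the neighbors Txnrd1 (40.2 to 41.5) and Nqo1 (38.5 to 41.3) overlapped between cultures. With NUP-17d no neighbors overlapped, and 2 pairs had exchanged places. Srxn1 went from 133.5 to 137.7 to 104.2 to 108.3 and now lay below Gclc, which had 113.1 to 114.3. Gsr went from 56.2 to 58.5 to 66.1 to 69.5, above Nfe2l2 at 63.7 to 65.8.

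The exchanges stand within each library and do not depend on library scaling, but that of Srxn1 and Gclc depends on dividing by length. In CPM, without length, Srxn1 was already below Gclc with DMSO (382.1 to 394.5 against 424.1 to 447.1). Gsr lay below Nfe2l2 in CPM with DMSO (153.0 to 159.4 against 160.6 to 164.1). With NUP-17d it lay above (179.7 to 188.9 against 160.3 to 165.7). The ratio of Srxn1 to Gclc in FPKM was 1.10, 1.04 and 1.12 with DMSO and 0.923, 0.912 and 0.950 with NUP-17d. The ratio of Gsr to Nfe2l2 was 0.895, 0.864 and 0.915 with DMSO and 1.05, 1.06 and 1.02 with NUP-17d. Each of these FPKM ratios lay on one side of 1 in all DMSO cultures and on the other in all NUP-17d cultures. Srxn1 relative to Nfe2l2, the target against its factor, averaged 2.11 ± 0.0566 in DMSO cultures against 1.63 ± 0.0460 after NUP-17d (SD, n = 3 each). These 3 pairs were chosen after the values were seen and were not tested. Over the 4 ratios that were tested, Benjamini-Hochberg adjustment of the exact permutation values took each p of 0.1 to 0.2 and the other p values to 0.5.

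**Figure D3:**
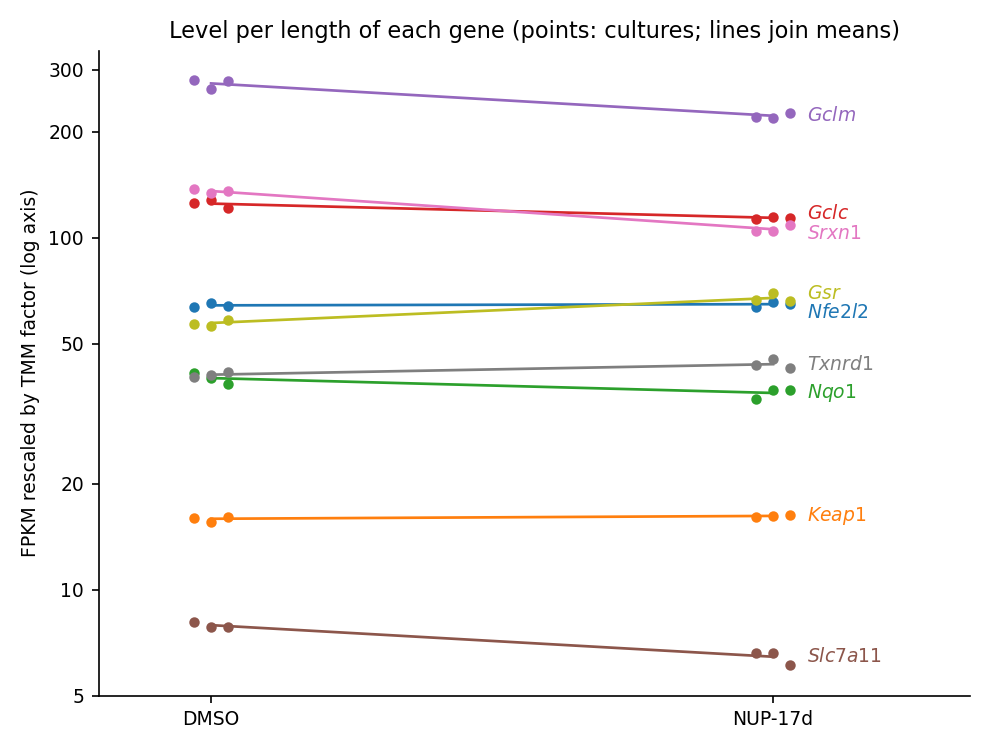
FPKM divided by the TMM factor (log axis) of the 9 genes in DMSO and NUP-17d cultures, with points for cultures and lines joining group means. The Srxn1 and Gclc lines cross, as do those of Gsr and Nfe2l2, and Gclm stays highest and Slc7a11 lowest.

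The partners and competitors of NRF2 fell where they changed. Of 15 tested genes of this list of 16, 7 passed as lower, 0 as higher and 8 did not pass, with a median log2 fold change of -0.066 beside 0.014 over all genes. Over all tested genes, 16.4% passed as higher and 18.9% as lower. With totals alone, 8 passed as higher and 6 as lower. Mafk, a small MAF partner of NRF2, had 421.1, 393.0 and 397.8 CPM with DMSO and 255.6, 257.9 and 272.1 with NUP-17d (log2 fold change -0.63, edgeR adjusted p = 2.29e-13). Nfe2, the erythroid relative of NRF2 that uses the same partners, fell by 0.61 on the log2 scale (edgeR adjusted p = 3.21e-13). Mafg fell by 0.36 (edgeR adjusted p = 2.73e-08). Bach1, a heme-sensing repressor that competes for the same elements, went from 209.7, 197.9 and 205.0 to 156.1, 147.3 and 145.7 CPM (log2 fold change -0.45, edgeR adjusted p = 2.20e-10). On the side of NRF2 turnover, Cul3 fell by 0.35 (edgeR adjusted p = 5.51e-09) and Btrc, a subunit of the ligase that acts without KEAP1, fell by 0.62 (edgeR adjusted p = 3.53e-12). These 6 genes also had log2 fold changes below 0 with totals alone. The small MAF proteins also pair with NFE2, and these genes fell beside the erythroid markers given above, whose part was not tested.

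Other genes known as NRF2 targets mostly rose where they changed. Of 25 tested of 28, 13 passed as higher, 3 as lower and 9 did not pass, with a median log2 fold change of 0.15. Beside this, 16.4% of all tested genes passed as higher and 18.9% as lower. Hmox1, which encodes the heme oxygenase that opens the heme ring, had 154.0, 152.9 and 157.8 CPM with DMSO and 322.3, 333.6 and 328.8 with NUP-17d, a 2.12-fold rise (edgeR adjusted p = 3.07e-18). Ugdh, which makes UDP-glucuronate for conjugation, rose by 0.71 on the log2 scale (edgeR adjusted p = 2.86e-13). Ftl1, the ferritin light chain, rose by 0.30 (edgeR adjusted p = 6.67e-07), though its reads may be divided among near-identical copies, and Slc48a1, a heme transporter, fell by 0.43 (edgeR adjusted p = 1.28e-10). Hmox1, Ftl1 and Slc48a1 also handle heme or iron, and Hmox1 is under BACH1 as well as NRF2. With totals alone 22 were higher and 1 lower. The macrophage marker sum, given above, was also higher with NUP-17d, though 2 of its 8 genes passed as lower with TMM scaling. Its part in these rises was not tested.

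Glutathione genes outside the 9 went both ways. Of 36 tested of 50, 6 passed as higher, 13 as lower and 17 did not pass, with a median log2 fold change of 0.042. The share that passed as higher was near the 16.4% of all tested genes, and the share lower was above their 18.9%. With totals alone the balance turned, with 23 higher and 9 lower (median 0.31). The summed level was 5475 to 5731 CPM in DMSO cultures and 3811 to 4130 CPM in NUP-17d cultures, and Gpx1 made up the largest part of that difference. Gpx1, the main glutathione peroxidase of red cells, had 3193.1, 3054.7 and 3132.4 CPM with DMSO and 1733.4, 1675.5 and 1908.7 with NUP-17d (log2 fold change -0.82, edgeR adjusted p = 1.99e-14). Gss, which completes glutathione after glutamate-cysteine ligase, had 136.3, 133.0 and 133.7 CPM with DMSO and 84.6, 77.7 and 87.3 with NUP-17d. Its log2 fold change of -0.69 (edgeR adjusted p = 2.63e-13) stood beside -0.14 for Gclc and -0.31 for Gclm. Glo1, a glyoxalase that uses glutathione, fell by 0.61 (edgeR adjusted p = 4.49e-12), and Gpx3, a secreted peroxidase, rose by 0.97 from a low level of 17.1 CPM (edgeR adjusted p = 4.30e-13). Gstm and Gstp genes are families of related genes, and the counting could have divided reads among the most alike. They are in the counts above but are not given one by one.

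In the thioredoxin and peroxiredoxin list, 3 of 20 genes passed as higher and 8 as lower, and 9 did not pass (median -0.074). Here too the share higher was near the 16.4% of all tested genes, and the share lower was above their 18.9%. With totals alone the balance turned, with 11 higher and 5 lower (median 0.19). Txnip, an inhibitor of thioredoxin, fell by 0.83 on the log2 scale (edgeR adjusted p = 3.82e-16). Prdx2, the abundant peroxiredoxin of red cells, had 950.1, 869.3 and 919.6 CPM with DMSO and 528.0, 508.0 and 521.7 with NUP-17d (log2 fold change -0.81, edgeR adjusted p = 1.78e-15). Txnrd2, the mitochondrial thioredoxin reductase, fell by 0.65 (edgeR adjusted p = 5.58e-12), where the cytosolic Txnrd1 had 0.097. Sesn1 fell by 0.50 (edgeR adjusted p = 2.15e-11). Txn1, the substrate of Txnrd1, had a log2 fold change of -0.085 (95% interval -0.17 to -0.0025, edgeR adjusted p = 0.103).

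Among NADPH and pentose phosphate enzymes, 7 of 18 tested genes passed as higher and 5 as lower, and 6 did not pass (median 0.056). For all tested genes the shares were 16.4% higher and 18.9% lower. Nadk2, the mitochondrial NAD kinase, fell by 0.53 on the log2 scale (edgeR adjusted p = 3.30e-12). Mthfd2 and Mthfd1, enzymes of folate-linked one-carbon flow, fell by 0.40 and 0.29 (edgeR adjusted p = 1.55e-08 and 1.23e-06), of which the call on Mthfd1 was lost with totals alone (log2 fold change -0.020, edgeR adjusted p = 0.682). Idh1, a cytosolic source of NADPH, rose by 0.27 (edgeR adjusted p = 3.02e-06), and Pgd, an NADPH-yielding enzyme of the pentose phosphate pathway, rose by 0.19 (edgeR adjusted p = 9.46e-05). With totals alone, 14 of the list were higher and 2 lower.

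**Figure D4:**
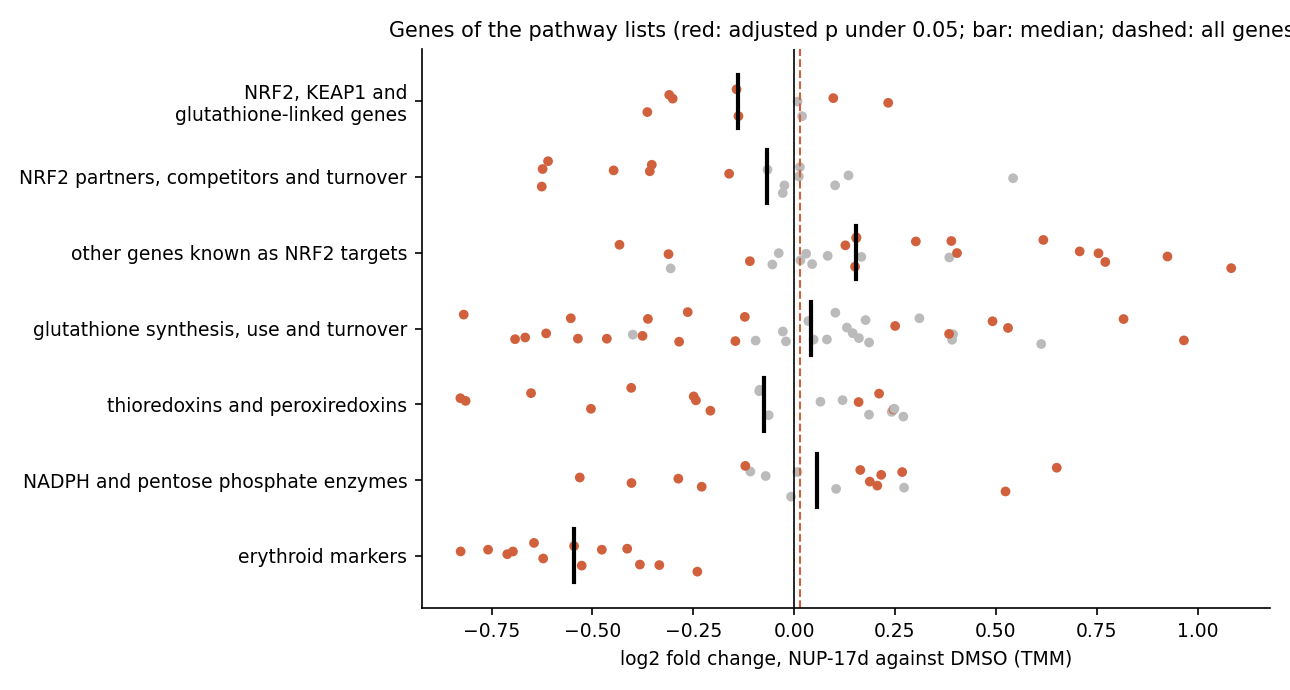
Log2 fold change (horizontal axis, TMM scaling) of each tested gene in the set of 9 genes, the 5 pathway lists and the erythroid marker list, red where the adjusted p was under 0.05 and grey otherwise. Black bars are list medians, from -0.55 for erythroid markers to 0.15 for other NRF2 targets, and the dashed line is the all-gene median of 0.014.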

How the data were processed

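RNA from 3 DMSO and 3 NUP-17d erythroblast cultures was analyzed, with groups and replicate numbers from the sample labels. The authors deposited 1 table per culture with an expected count per gene (estimated reads, not normalized) and an FPKM value (that count per transcript length and library total). The submitters' processing notes name genome build mm10, and the aligner and counting program are not given in the sources used here. The length column deposited by the authors, the mean transcript length of each gene, was used as given. Library kit and sequencer differ between the paper (TruSeq stranded, HiSeq) and the labels (DNBseq), and whether counting used strand is not stated.

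Absent genes were taken as 0. Expected counts were rounded and tested with edgeR 4.0.16 in R 4.3.3 (filterByExpr, TMM scaling, quasi-likelihood test, Benjamini-Hochberg adjustment over all tested genes, threshold 0.05). CPM values carry the TMM factors, and levels between genes use FPKM divided by the TMM factor. DESeq2 1.42.0, limma 3.58.1 (log2 FPKM with a pseudocount of 1 or 0.1), other scalings and filters, a replicate block and leaving out each culture were the alternatives, and the fits were tested on simulated data. The ratio tests were 2-sided exact permutation tests. Totals were 20076409 to 20419018 expected counts per culture. Cultures of a group differed by more than counting noise (chi-square per degree of freedom 1.80 to 4.41).

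Members and gene lists were chosen with earlier results of these data known. The set has 10 members, of which 1, with its ratio, is not reported here, and counts are over the other 9. Named genes are these 9, the 4 genes of lowest p in each pathway list, and Slc3a2, Pgd, Cul3, Mafg, Mafk, Bach1, Hmox1, Gss and Txn1. Fcer1a and Lyz2 were named after their values were seen.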

Additional observations from a re-analysis of the deposited data

How the results depend on the processing

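The choice of library scaling moved most. With library totals only, limma on log2(FPKM + 1), limma on log2(FPKM + 0.1) and limma without an FPKM filter, 9115, 8494, 8480 and 8652 genes passed (8458, 7895, 7880 and 7997 higher; 657, 599, 600 and 655 lower), against 4346 with TMM. In each of these 4, 6 of the 9 members were higher and 1 lower. The log2 fold change was 0.12 to 0.13 for Nqo1, 0.13 for Gclc and 0.18 for Txn1, each above 0 where TMM gave a value below 0. The NRF2 partner list then had 14, 11, 11 and 11 genes called (7 with TMM), and the glutathione list 32, 29, 29 and 32 (19 with TMM). These settings carry no correction for composition, and limma on FPKM divided by the TMM factors left the side and direction of all 9 members as with TMM. DESeq2 called 1276 genes as higher and 1 member as higher, since Txnrd1 did not pass. With each culture left out, 1 to 2 members passed as higher and Nqo1 passed in 4 of 6 fits. Gclc, Gclm, Slc7a11, Srxn1 and Gsr passed in all 6. With the replicate number as a block 4543 genes and 7 members passed, and no call among the 9 changed. Same-numbered cultures did not deviate together (correlations -0.032 to 0.034), so the numbers do not pair cultures. Edge cases near the threshold (Nqo1, Txnrd1) are limited by the spread of 3 cultures. Expected counts of the members were 983 to 10801.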
